A study of Danio rerio with 184 samples.

Results

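The nuclear genes for the subunits of oxidative phosphorylation complexes I, III, IV and V were followed in single hair cells of zebrafish larvae. The members were all rows whose gene symbol, upper or lower case, began with ndufa, ndufb, ndufc, ndufs, ndufv, uqcr or atp5, or with cox4 to cox8, leaving out the ndufaf assembly factors. This gave 84 of the 12355 gene rows, of which 40 belong to complex I, 8 to complex III, 16 to complex IV and 20 to complex V. Of these, 80 had at least 10 UMIs (unique molecular identifiers, 1 for each captured transcript) over all cells. The 4 others were NDUFB4 with 2 UMIs, cox8b with 4 UMIs, a second row named COX5B (ENSDARG00000068738) with 1 UMI, and a second row named COX7A2 (ENSDARG00000110700) with 1 UMI. Symbols are printed as the symbol table gives them, many in the human style.

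Cells were taken at 6 days post fertilization from the Tg[myo6b:actb1-EGFP] line, in which a promoter of the hair cell gene myo6b drives a fluorescent actin. One group carried the label Emx2-mutant and the other the label wild type, both on this transgene; the mutant allele, its zygosity, the number of larvae and any pooling are not given in the labels, so cells are called mutant here by label alone. Green cells were sorted from dissociated larval trunks, and their transcripts were counted at the 3′ end by mcSCRB-seq, a plate-based single-cell method. After cells under 1000 UMIs were left out, 92 mutant cells (545364 UMIs in sum) and 90 wild-type cells (537512 UMIs in sum) remained. No animal is named, so each genotype counts as 1 sample, no test or p-value is given, and all 95% intervals cover counting error only.

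Complex I takes electrons from NADH and passes them to ubiquinone, complex III passes them from ubiquinol to cytochrome c, and complex IV passes them to oxygen. The protons moved across the inner mitochondrial membrane drive ATP synthesis by complex V. Each of these complexes joins subunits encoded in the mitochondrial genome with the nuclear-encoded subunits described here, and hair cells depend on mitochondria for ATP and for calcium buffering.

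The cells carried hair cell transcripts in both genotypes. Over single mutant cells, the 17 rows of the hair cell marker list took a median share of 29.8% (range 12.997% to 36.8%) and 27.8% in wild-type cells (14.9% to 37.95%). The gene pvalb8 alone held 80.3% of the UMIs of this list. On plate 2 the median depth of a cell was 7560.5 UMIs for mutant and 6261.5 UMIs for wild type, and on plate 4 it was 3682.5 UMIs for mutant and 3495 UMIs for wild type. Mutant-labelled cells filled well columns 1 to 6 and wild-type cells columns 7 to 12 of each plate, so genotype and side of the plate cannot be told apart. The targeted gene emx2 had 105 UMIs in mutant cells and 45 in wild-type cells, a ratio of 2.30 (1.61 to 3.34), and since the allele is not given, a count at the 3′ end does not check the label. Several values moved with genotype alongside the members and their part in the results was not tested. The 79 ribosomal protein genes had a summed ratio of 0.777, and 14 mutant and 26 wild-type cells had less than 20% of their UMIs in pvalb8, a calcium buffer gene of hair cells. The 9 matched rows of the 11 muscle markers, all with a UMI, had 602 UMIs in mutant cells (0% to 0.611% of a cell's UMIs) and 914 in wild-type cells (0% to 0.836%). The gene atp2a1 alone held 72.6% of these muscle UMIs. Of the 9 muscle rows 3 were lower and 2 higher in mutant cells on both plates, against 26.1% and 22% of all genes with at least 10 UMIs. Support cell markers had 410 UMIs in mutant cells and 333 in wild-type cells, a ratio of 1.21 (1.05 to 1.41) that was 1.09 on plate 2 and 1.46 on plate 4, with median shares of 0.053% in mutant and 0.0506% in wild-type cells. With the cells low in pvalb8 left out, the ribosomal protein genes had a summed ratio of 0.98502, near 1. In that setting the support cell ratio changed side, to 0.8949, and the muscle marker ratio stayed low, at 0.669. Epidermis markers had a median share of 0.202% in mutant and 0.200% in wild-type cells. Neuron and glia markers had 91 UMIs in mutant cells and 72 in wild-type cells, and no erythroid marker had a row. Of the 6 leukocyte markers 1 had a row, with 0 UMIs in mutant cells and 1 in wild-type cells.

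The 84 members together made up 3.599% of all UMIs, with 34880 CPM (the summed UMIs scaled to a fixed library total for each genotype) in mutant cells and 37125 CPM in wild-type cells. Levels are not divided by gene length, because the method counts 1 tag at the 3′ end of each transcript. By summed level, complexes V, I and IV were near each other, at 1.18%, 1.07% and 1.06% of UMIs, and complex III held 0.288%. By level per gene the order was different. The median member had 608 CPM in complex IV, 436 CPM in complex V, 364 CPM in complex III and 216 CPM in complex I. This order was the same in all 4 sets of cells formed by plate and genotype. The quartiles of neighbours in that order overlapped, with 487 to 764 CPM over the 13 measured members of complex IV, 369 to 833 CPM over the 20 of complex V, 219 to 505 CPM over the 8 of complex III and 119 to 369 CPM over the 39 of complex I. The quartiles of complex IV stood above those of complex I, and those of complexes V and I met at 369 CPM.

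**Figure D1:**
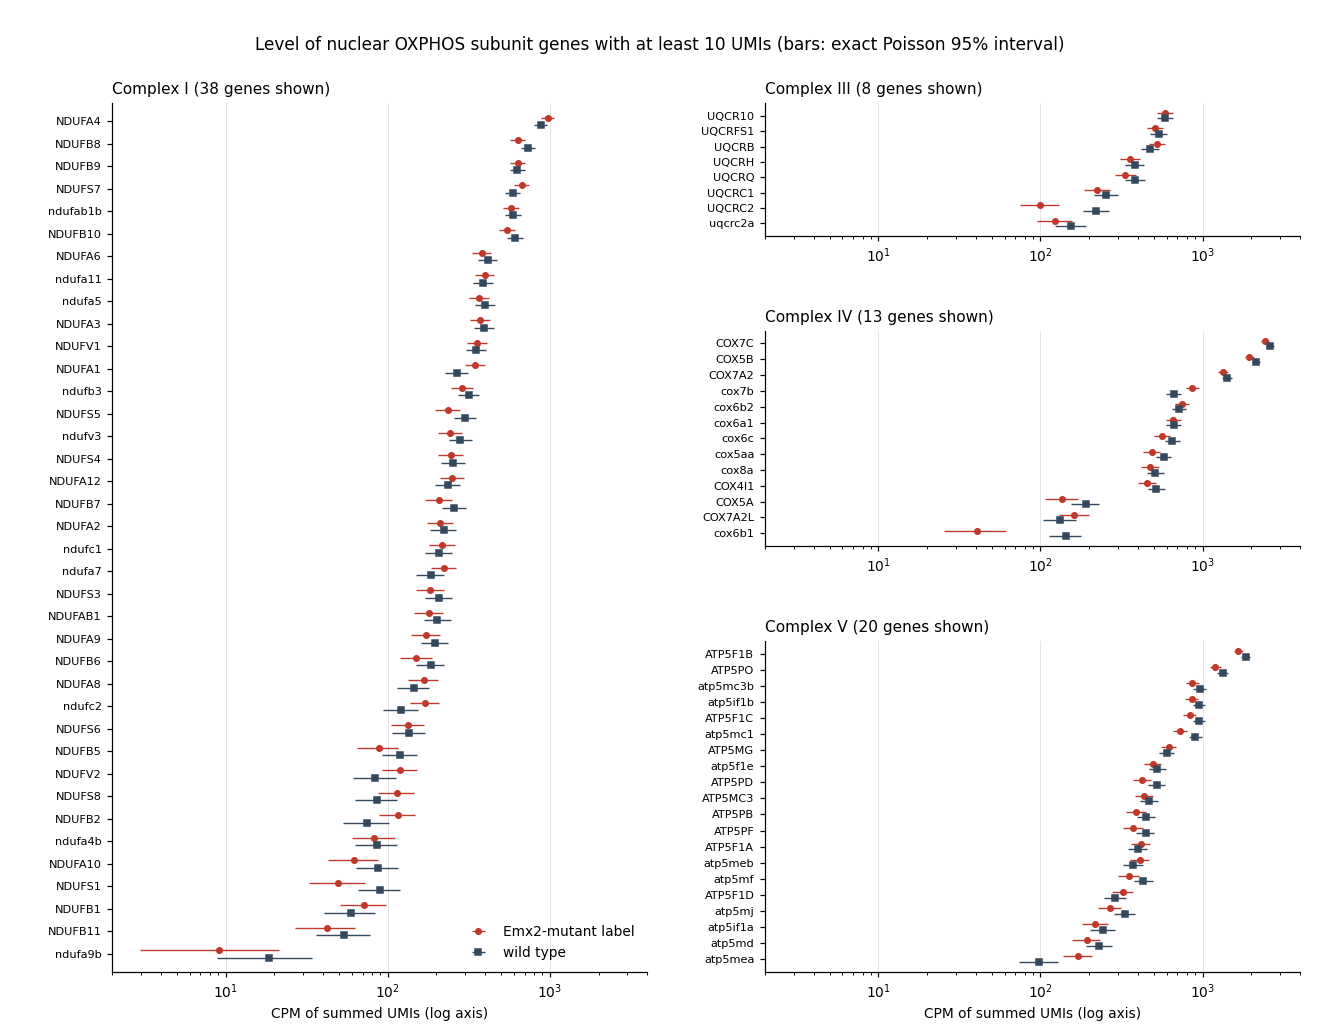
Level of 79 of the 80 members with at least 10 UMIs, in CPM on a log axis, by complex. Red circles are mutant cells and dark squares wild-type cells, with exact Poisson 95% intervals. Levels ran from 9.17 CPM for ndufa9b in mutant cells to 2601 CPM for COX7C in wild-type cells, and the symbols of most genes overlap between genotypes, with cox6b1 and UQCRC2 as the widest gaps by ratio among genes with at least 50 UMIs.

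A few genes carried much of the sum. COX7C, a small membrane subunit of complex IV, ranked 38th among all 12355 genes, COX5B ranked 46th, ATP5F1B 52nd, COX7A2 66th and ATP5PO 73rd. The top gene held 23.7% of the UMIs of complex IV (COX7C), 20.4% in complex III (UQCR10), 14.9% in complex V (ATP5F1B) and 8.63% in complex I (NDUFA4). Levels were alike on both plates. Over the 79 members with at least 50 UMIs, log2 CPM on plate 2 and plate 4 correlated at r = 0.930 (Spearman 0.946), as a description across genes that share the same annotation and counting.

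Complex I differed little in sum between genotypes. Its summed ratio, mutant over wild type, was 0.974 (0.939 to 1.01). Plate 2 gave 0.981 and plate 4 gave 0.955, and the ratio lay at 1.02 with edgeR TMM factors. Of its 39 measured members 24 were lower and 15 higher in mutant cells, with 13 lower and 6 higher on both plates. Among all genes with at least 10 UMIs, 55% were lower, 26.1% lower on both plates and 22% higher on both plates. The 7 core genes, among them those whose products hold the flavin and the iron-sulfur clusters that move electrons, summed to 1782 CPM in mutant cells and 1805 CPM in wild-type cells.

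Among these core genes the levels differed widely. NDUFS7, which holds the last iron-sulfur cluster before ubiquinone, had 673 CPM in mutant cells and 590 CPM in wild-type cells, a ratio of 1.14 (0.979 to 1.33), higher on plate 2 (1.25) and lower on plate 4 (0.862). NDUFV1, the flavin-binding subunit that accepts electrons from NADH, had 358 CPM in mutant cells and 352 CPM in wild-type cells (ratio 1.02, 0.828 to 1.25). NDUFS1, the largest iron-sulfur subunit, had only 27 UMIs in mutant cells and 48 in wild-type cells, a ratio of 0.554 (0.333 to 0.907) that was 0.679 on plate 2 and 0.503 on plate 4. It had no UMI in 74 of 92 mutant and 64 of 90 wild-type cells. The iron-sulfur subunits NDUFS8 (1.33, 0.893 to 1.99) and NDUFV2 (1.42, 0.959 to 2.13) and the core subunit NDUFS3 (0.888, 0.671 to 1.17) had intervals that include 1.

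The supernumerary genes of complex I, which surround the core, were led by NDUFA4 with 970 CPM in mutant cells and 880 CPM in wild-type cells, followed by NDUFB8 and NDUFB9 of the membrane arm. NDUFA4 carries a complex I name but its product is now known as a subunit of complex IV. Moving it and its copy ndufa4b gave a ratio of 0.963 for complex I and of 0.956 for complex IV. NDUFB2, in the membrane arm, was the complex I gene furthest to the higher side, with 63 UMIs in mutant cells and 40 in wild-type cells (1.55, 1.03 to 2.37). That ratio was 1.81 on plate 2 and 1.04 on plate 4, and it was 1.45 without the mutant cell with the most NDUFB2 UMIs. NDUFAB1, the mitochondrial acyl carrier protein, differed in direction between plates, at 1.14 on plate 2 and 0.508 on plate 4. The rare copy ndufa9b had 5 UMIs in mutant cells and 10 in wild-type cells, and its ratio of 0.493 has an interval of 0.132 to 1.58.

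In complex III the summed core genes were lower in mutant cells, and the sum of the other genes was near that of wild-type cells. The 4 core genes summed to 955.3 CPM in mutant cells and 1166 CPM in wild-type cells (0.819, 0.728 to 0.921), with a ratio of 0.744 on plate 2 and 0.961 on plate 4. The 4 supernumerary genes summed to 1804 CPM in mutant cells and 1827 CPM in wild-type cells (0.988, 0.903 to 1.08). The interval of the core sum on plate 4 was 0.796 to 1.16, which includes 1. Much of the core difference lay in UQCRC2, with 54 of 521 core UMIs in mutant cells and 119 of 627 in wild-type cells.

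UQCRC2, a core protein of the matrix side, was the complex III gene with the largest difference. It had 99.02 CPM in mutant cells and 221 CPM in wild-type cells, from 54 and 119 UMIs, a ratio of 0.447 (0.318 to 0.622) with 0.344 on plate 2 and 0.684 on plate 4. Its counts per cell ran from 0 over a median of 0 to 4 UMIs in mutant cells and from 0 over a median of 1 to 20 UMIs in wild-type cells, and 60 of 92 mutant and 44 of 90 wild-type cells had none. The cells of the genotypes thus overlapped, with the high counts among wild-type cells. Without the wild-type cell with the most UQCRC2 UMIs the ratio was 0.528, and without the cells low in pvalb8 it was 0.417. Its copy uqcrc2a was lower on plate 2 (0.586) and higher on plate 4 (1.53). UQCRC1, the partner core protein, had 0.878 (0.682 to 1.13), and UQCRFS1, the Rieske iron-sulfur protein, had 510 CPM in mutant cells and 536 CPM in wild-type cells (0.951, 0.804 to 1.13). Among the supernumerary genes UQCR10 had 1.004 (0.857 to 1.18), UQCRB 1.11 (0.930 to 1.31), UQCRH, the hinge protein at cytochrome c1, 0.938 (0.767 to 1.15), and UQCRQ 0.867 (0.706 to 1.06). CYC1, the cytochrome c1 gene whose symbol lies outside the rule, had 161 UMIs in mutant cells and 197 in wild-type cells (0.806, 0.650 to 0.997).

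Complex IV had the highest levels per gene and the summed ratio 0.945 (0.911 to 0.980), with 0.949 on plate 2 and 0.932 on plate 4. Its abundant members differed little. COX7C had 2437 CPM in mutant cells and 2601 CPM in wild-type cells, and per cell its counts ran from 0 over a median of 13 to 44 UMIs in mutant cells and from 1 over 12 to 73 UMIs in wild-type cells. Its ratio was 0.937 (0.869 to 1.01), and the cells overlapped over most of the range, with the highest count in a wild-type cell. Counts per cell are not scaled for depth, and the deepest cell had 15923 UMIs in mutant and 33325 UMIs in wild-type cells. As a share of a cell's UMIs, the highest COX7C value was 0.552% in mutant and 0.585% in wild-type cells. COX5B (ENSDARG00000015978), the zinc-binding subunit of the matrix side, had 1945 CPM in mutant cells and 2139 CPM in wild-type cells (0.909, 0.836 to 0.989). COX7A2 (ENSDARG00000053217) had 1342 CPM in mutant cells and 1420 CPM in wild-type cells (0.946, 0.853 to 1.05). COX4I1, the subunit through which ATP inhibits the enzyme in mammals, was 1.11 on plate 2 and 0.520 on plate 4.

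The complex IV members furthest to the higher and to the lower side were cox7b and cox6b1. The small membrane subunit cox7b had 864 CPM in mutant cells and 662 CPM in wild-type cells, a ratio of 1.304 (1.13 to 1.501), with 1.25 on plate 2 and 1.43 on plate 4. Per cell it ran from 0 over a median of 4 to 29 UMIs in mutant cells and from 0 over 2.5 to 25 UMIs in wild-type cells. It was the most abundant member whose interval lay above 1 on each plate, and the ratio was 1.40 without the cells low in pvalb8. On the lower side cox6b1 had 22 UMIs in mutant cells and 77 in wild-type cells (0.282, 0.167 to 0.457). It is one copy of the subunit that bridges the monomers of the enzyme. Plate 2 gave 17 UMIs in mutant cells and 66 UMIs in wild-type cells. Plate 4 gave 5 UMIs in mutant cells and 11 UMIs in wild-type cells, where the ratio of 0.472 has an interval of 0.129 to 1.48. At most 3 UMIs were found in a mutant cell and 9 in a wild-type cell, and 75 of 92 mutant and 56 of 90 wild-type cells had none. The ratio of cox6b1 was 0.421 once the cells low in pvalb8 were set aside. COX5A, with 74 UMIs in mutant cells and 102 in wild-type cells, was lower on both plates. Its log2 ratio of -0.479 was larger in size than that of cox7b, 0.382.

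The summed ratio of complex V was 0.909 (0.878 to 0.941). Plate 2 gave 0.883 (0.846 to 0.921), the lowest of the 4 complexes there, and plate 4 gave 0.968 (0.910 to 1.03), the highest there. By structural part the ratio was 0.928 for the 5 genes of the F1 head and central stalk, where ATP is made, and 0.871 for the 3 genes of the c ring, the rotor in the membrane. It was 0.869 for the 4 genes of the peripheral stalk, the stator that holds the head, and 0.972 for the 6 other membrane genes. The 4 peripheral stalk genes ATP5PO, ATP5PD, ATP5PB and ATP5PF were each lower, at 0.903, 0.817, 0.863 and 0.837, and 3 of them on both plates. Of all genes with at least 10 UMIs, 55% were lower and 26.1% were lower on both plates.

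ATP5F1B, the catalytic beta subunit, had 1658 CPM in mutant cells and 1846 CPM in wild-type cells. It was found in each of the 182 cells, with 1 over a median of 8.5 to 39 UMIs in mutant cells and 2 over 9.5 to 55 UMIs in wild-type cells. Its ratio was 0.898 (0.820 to 0.984), from 0.847 on plate 2 and 1.01 on plate 4, and the ranges of the genotypes overlapped over most of their width. ATP5F1A, the alpha subunit paired with it in the head, had a lower level, 416 CPM in mutant cells and 398 CPM in wild-type cells. ATP5PO, the subunit that joins stalk and head, had 1199 CPM in mutant cells and 1328 CPM in wild-type cells. The c ring gene atp5mc1 had 726 CPM in mutant cells and 902 CPM in wild-type cells (0.805, 0.703 to 0.921), and its interval lay below 1 on plate 2 (0.824, 0.701 to 0.969) and on plate 4 (0.758, 0.589 to 0.972). The inhibitor genes atp5if1a and atp5if1b, whose product blocks reverse rotation, each had a ratio near 0.902, and atp5mj, a small membrane subunit, had 0.804 (0.642 to 1.01). The gene atp5mea, a copy of subunit e that helps hold dimers together, went the other way, with 93 UMIs in mutant cells and 53 in wild-type cells (1.73, 1.22 to 2.47), 1.56 on plate 2 and 2.36 on plate 4. Its counts per cell ran from 0 over a median of 0.5 to 12 UMIs in mutant cells and from 0 over 0 to 6 UMIs in wild-type cells.

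Detection followed level. With 2000 UMIs drawn at random from each cell, and 3 mutant and 2 wild-type cells with fewer set aside, the median member was found in 63.3% of cells in complex IV, 57.6% in complex V, 43.5% in complex III and 30.5% in complex I. In all, 33 members reached at least 50% of the 89 mutant and 88 wild-type cells that remained, 10 of them in complex IV, 13 in complex V, 3 in complex III and 7 in complex I. COX7C and ATP5F1B were each found in 98.3% of cells and COX5B in 95.5%. Across the 80 measured members 48 were found in a smaller share of mutant than of wild-type cells and 32 in a larger share. The same count over all genes is not given here. At the widest gaps, NDUFS5 was found in 26.97% of mutant and 50% of wild-type cells, atp5mf in 35.96% of mutant and 61.4% of wild-type cells, and ndufa7 in 39.3% of mutant and 23.9% of wild-type cells. These 3 genes, the 2 lowest and the highest by this difference, were picked after their values were seen. Of the 79 members with at least 50 UMIs, 76 were found in fewer cells than a Poisson count of the same mean would give, by a median of 4.68 percentage points, so their UMIs were spread somewhat unevenly over cells.

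Over all members, 55 of 80 were lower and 25 higher in mutant cells, against 55% lower among the 6288 genes with at least 10 UMIs. On both plates 33 members (41.25%) were lower and 9 (11.25%) higher, against 26.1% and 22% of those genes. With at least 50 UMIs the members counted 54 of 79 lower, 32 lower on both plates and 9 higher on both plates, against 58.7%, 33.2% and 20.5% of 2144 genes. The median log2 ratio was -0.13 for the members and -0.05 for all genes with at least 10 UMIs, and -0.12 for the members and -0.09 for all genes with at least 50 UMIs. A member was called when its ratio was at least 1.5 or at most 1/1.5 with the same side on both plates. By this rule 4 members were called lower (cox6b1, UQCRC2, NDUFS1 and ndufa9b) and 2 higher (atp5mea and NDUFB2), which is 5% and 2.5% of 80, against 14.9% and 13.6% of all genes with at least 10 UMIs. With at least 50 UMIs the shares were 3.80% and 2.53% of 79 members, against 10.4% and 6.72% of all genes. The called shares of the members were thus below those of all genes in both directions. A smaller share of all genes was called with at least 50 UMIs than with at least 10. The members, with a median of 357 CPM, were not set against genes of like level, so the part of depth was not tested. Without the cells low in pvalb8, 48 of 80 members were lower and 32 higher, against 52.9% lower among all genes.

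The ratio of a single member said little about its ratio on the other plate. Over the 79 members with at least 50 UMIs the log2 ratios of plate 2 and plate 4 correlated at r = 0.11 (Spearman 0.021), and 41 of 79 lay on the same side. Over all 2144 genes r was 0.053 (Spearman 0.056). By complex, r was -0.16 over the 38 genes of complex I with 18 on the same side, 0.020 over the 8 of complex III with 2 on the same side, 0.593 over the 13 of complex IV with 10 and 0.409 over the 20 of complex V with 11. These are descriptions across genes that share their cells.

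**Figure D2:**
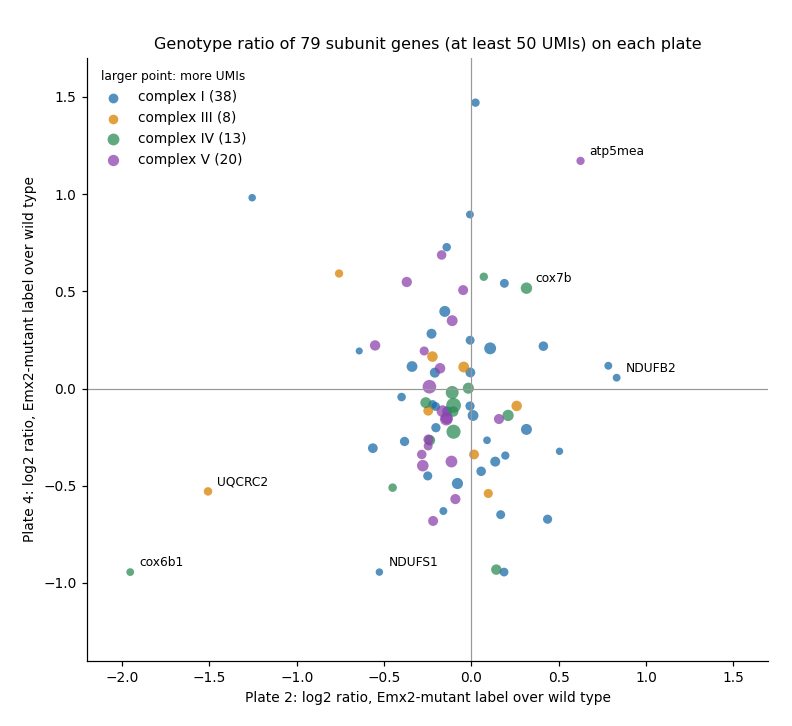
Log2 ratio, mutant over wild type, of the 79 members with at least 50 UMIs on plate 2 (x) and plate 4 (y), coloured by complex, with larger points for more UMIs. The points show little common slope (r = 0.11), and cox6b1, UQCRC2 and NDUFS1 lie low and atp5mea and cox7b high on both plates.

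Several subunits are encoded by more than one gene here, and the share of each copy could be compared within genotype, free of the total. Copies can be alike in sequence, and reads that fit both may have been split between them by the counting, a step the labels leave undescribed. In the cox6b pair cox6b1 gave 5.10% of UMIs in mutant cells (3.23% to 7.63%) and 16.7% in wild-type cells (13.4% to 20.5%). This gap lay mostly on plate 2, with 5.90% in mutant and 22.7% in wild-type cells, while plate 4 gave 3.50% in mutant cells (1.15% to 7.97%) and 6.51% in wild-type cells (3.29% to 11.3%), with intervals that overlap. Its partner cox6b2 had 750 CPM in mutant cells and 713 CPM in wild-type cells, and the pair summed to a ratio of 0.923 (0.808 to 1.05). UQCRC2 gave 44.6% of the uqcrc2 pair in mutant cells (35.6% to 53.9%) and 58.9% in wild-type cells (51.8% to 65.8%), lower on each plate, with intervals that overlap. That pair as a whole summed to 0.590 (0.467 to 0.743), with 0.451 on plate 2 and 0.966 on plate 4. In the atp5me pair atp5mea gave 29.3% in mutant cells (24.4% to 34.7%) and 20.9% in wild-type cells (16.04% to 26.4%), with intervals that overlap. Its partner atp5meb gave the rest.

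The shares of the other copies also had overlapping intervals between genotypes when the plates were summed. atp5if1a gave 20.3% of the inhibitor pair in either genotype, and COX5A gave 21.8% of the cox5a pair in mutant cells and 24.8% in wild-type cells. The pair COX5A and cox5aa, whose product sits on the matrix side of complex IV, was lower as a whole, at 0.813 (0.702 to 0.941), on plate 2 (0.820) and plate 4 (0.790). The 3 c ring genes code for the same rotor subunit; atp5mc3b gave 42.7% of their UMIs in mutant and 41.1% in wild-type cells, atp5mc1 35.8% in mutant and 38.7% in wild-type cells, and ATP5MC3 21.5% in mutant and 20.1% in wild-type cells. On plate 4 alone ATP5MC3 gave 23.5% in mutant and 14.8% in wild-type cells, a gap not seen on plate 2 (20.6% in mutant and 22.5% in wild-type cells). The rarer copies were ndufa4b with 7.84% of its pair in mutant and 8.86% in wild-type cells, NDUFAB1 with 23.7% in mutant and 25.4% in wild-type cells (on plate 4, 18.6% in mutant and 29.03% in wild-type cells, with intervals that overlap), ndufa9b with 5.05% in mutant and 8.70% in wild-type cells, and COX7A2L, known in mouse as a factor that joins complexes III and IV, with 10.7% of the cox7a group in mutant and 8.51% in wild-type cells. cox8a gave 99.2% of the cox8 pair in mutant and 99.3% in wild-type cells.

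**Figure D3:**
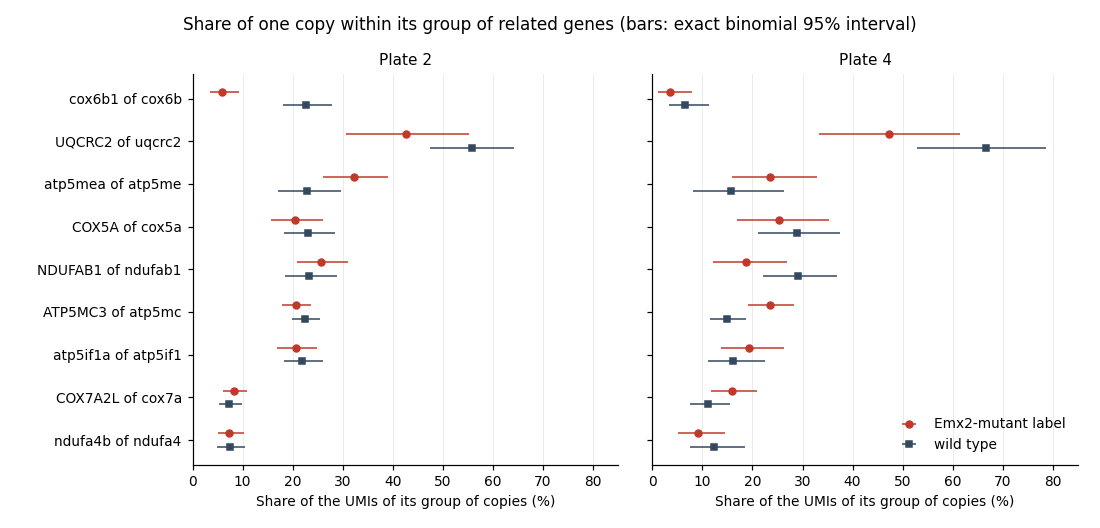
Share of UMIs that 1 copy gives within its group of related genes, on plate 2 (left) and plate 4 (right), with exact binomial 95% intervals. Red circles are mutant cells and dark squares, drawn below them, wild-type cells. The intervals of cox6b1 stand apart on plate 2, at 5.90% in mutant and 22.7% in wild-type cells, and those of ATP5MC3 on plate 4.

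In sum, the mitochondrial partners of these subunits stood on the other side of 1. The 12 genes of the mitochondrial genome with a row had 57903 CPM in mutant cells and 54131 CPM in wild-type cells, and the ratio for the partners of each complex was 1.16 (1.08 to 1.25) for complex I, 1.07 (1.02 to 1.12) for complex III, 1.05 (1.03 to 1.08) for complex IV and 1.08 (1.05 to 1.11) for complex V. On plate 2 these ratios were 1.22 for complex I, 1.12 for complex III, 1.05 for complex IV and 1.04 for complex V. On plate 4 they were 1.06 for complex I, 1.002 for complex III, 1.06 for complex IV and 1.16 for complex V. Over both plates the mitochondrial UMIs for each nuclear member UMI were 1.66 in mutant cells and 1.46 in wild-type cells. Cell by cell the median of this quotient was 1.59 in mutant cells (1.06 to 3.09) and 1.49 in wild-type cells (0.832 to 2.19) on plate 2. On plate 4 it was 1.74 in mutant cells (1.09 to 5.09) and 1.55 in wild-type cells (1.01 to 3.90), and the cells of the genotypes overlapped widely on each plate. Without the cells low in pvalb8 the mitochondrial sum had a ratio of 1.01, against 0.944 for the members. The balance also differed by complex, where mt-nd4, a complex I gene, was not analysed here, with 0.241 mitochondrial UMIs for each nuclear UMI in complex I, 2.17 in complex III, 2.44 in complex IV and 1.81 in complex V over all cells.

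Other genes of the same pathway were counted from lists. Of the 9 measured genes of complex II and the electron carriers, 8 were lower on both plates and 1 of them was called lower, against 26.1% and 14.9% of all genes with at least 10 UMIs, with a summed ratio of 0.792 (0.736 to 0.851), led by SDHB, the iron-sulfur subunit of succinate dehydrogenase (0.800, 0.706 to 0.908), and cycsb, a cytochrome c gene (0.789, 0.672 to 0.926). Of 32 measured assembly factors, 21 were lower and 11 higher, against 55% lower among all genes with at least 10 UMIs. Of these factors 7 were called lower and 2 called higher, against 14.9% and 13.6% of all genes. The copper chaperone cox17 held 40.9% of their UMIs and had 0.960 (0.862 to 1.07). Of the 5 carriers and porins, 4 were lower and none was called, against 55% lower, 14.9% called lower and 13.6% called higher among all genes. The most abundant, SLC25A5, which exchanges ADP for ATP, had 0.970 (0.917 to 1.03). The tricarboxylic acid cycle had 7 lower and 8 higher of 15 genes, with 0 called lower and 4 called higher. For glycolysis 8 were lower and 10 higher of 18, with 0 called lower and 3 called higher. The shares of all genes were again 55% lower, 14.9% called lower and 13.6% called higher. Their summed ratios were 1.101 (1.002 to 1.21) and 1.07 (1.01 to 1.12). The 7 measured regulators of mitochondrial biogenesis were scarce and summed to 0.847 (0.655 to 1.09). The one with the most UMIs, a YY1 row (ENSDARG00000027978), had 21 UMIs in mutant cells and 42 in wild-type cells.

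Cells differed in how much of their RNA these genes took, and the shares of the complexes were only weakly correlated. The median share of the members was 3.515% in mutant cells (range 1.68% to 5.20%) and 3.70% in wild-type cells (2.10% to 5.13%). The medians on plate 2 were 3.57% in mutant and 3.85% in wild-type cells. Those on plate 4 were 3.27% in mutant and 3.53% in wild-type cells. The ranges of the genotypes overlapped on both plates. By complex, the median share over both plates was 1.09% in mutant and 1.08% in wild-type cells for complex I, and 0.285% in both for complex III. It was 0.987% in mutant and 1.07% in wild-type cells for complex IV, and 1.14% in mutant and 1.21% in wild-type cells for complex V. Within plates, complex I was lower in mutant cells, at 1.099% against 1.112% in wild-type cells on plate 2 and 0.988% against 1.037% on plate 4. Complex III differed in direction, with 0.279% in mutant and 0.271% in wild-type cells on plate 2. On plate 4 it had 0.302% in mutant and 0.338% in wild-type cells.

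**Figure D4:**
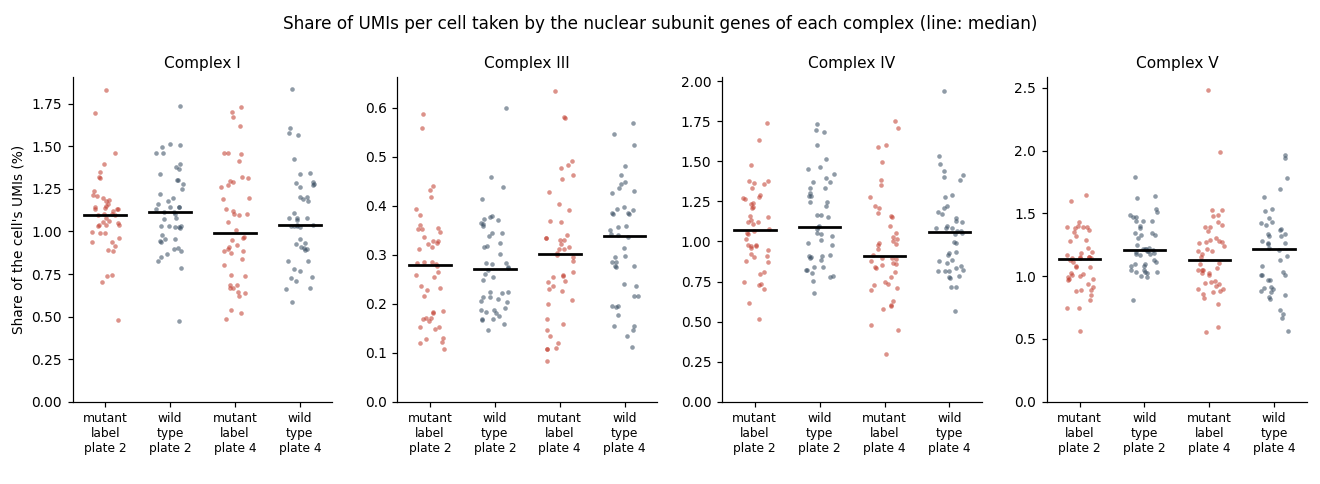
Share of each cell's UMIs taken by the nuclear subunit genes of each complex, with mutant cells in red left of wild-type cells on each plate and a line at the median. The clouds overlap in every panel. Mutant medians lay under wild-type medians on both plates for complexes I, IV and V, but on plate 4 alone for complex III. In complex V mutant medians were 1.14% (plate 2) and 1.13% (plate 4), beside wild-type medians of 1.21% (plate 2) and 1.22% (plate 4). Complex IV had mutant medians of 1.07% (plate 2) and 0.908% (plate 4), beside 1.09% (plate 2) and 1.06% (plate 4) for wild type.

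Within each plate and genotype, the share of one complex was set against that of another over 46, 46, 46 and 44 cells. Over the 6 pairs of complexes and the 4 sets of cells the median r was 0.162 (range -0.212 to 0.529), and 20 of 24 values were above 0. The pair of complexes IV and V had the highest median, 0.258, then III and V with 0.213, I and V with 0.197, I and IV with 0.184, I and III with 0.112 and III and IV with 0.109. The order of the pairs differed between sets and by measure, as the median Spearman rho of complexes I and V was 0.079, the lowest of the 6. Complexes III and IV had r = 0.529 in mutant cells of plate 2 and -0.003 in wild-type cells of plate 2, and complexes I and V had 0.233 in mutant and -0.212 in wild-type cells of that plate. After thinning to 2000 UMIs, r of complexes III and IV on plate 2 was 0.195 in mutant and -0.124 in wild-type cells. Without thinning, rho of complexes I and V on plate 2 was 0.028 in mutant and -0.165 in wild-type cells. The median over pairs was 0.247 in mutant and -0.004 in wild-type cells of plate 2, and 0.218 in mutant and 0.105 in wild-type cells of plate 4. In mutant cells of plate 2 the values ran from 0.121 to 0.529, and from -0.003 to 0.450 without cells low in pvalb8. In wild-type cells of plate 2 they ran from -0.212 to 0.406, and from -0.298 to 0.407 without such cells. The mutant cells left out include the cell of 15696 UMIs with the lowest share of the members, 1.68%. Cells of a set share a plate, and shares of deep and shallow cells carry different counting error, so these values are descriptions of sparse counts.

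The median correlation within complexes I and IV was above the median between complexes. When the members of a complex were ranked by UMIs and divided into odd and even ranks, the sums correlated at a median r of 0.305 in complex IV (0.223 to 0.460), 0.280 in complex I (0.173 to 0.404), 0.153 in complex V (-0.042 to 0.439) and 0.016 in complex III (-0.247 to 0.227), beside the median of 0.162 between complexes. The values within a complex take only part of its members on each side, and those between complexes take all members. Their counting error therefore differs, and they are not like for like. The members as a whole went with pvalb8 in all 4 sets, at a median r of 0.396 (0.143 to 0.511), and with the mitochondrial genome in 3 of 4 sets at a median of 0.241 (-0.056 to 0.439). They also went with the glycolysis genes in all 4 sets, at a median r of 0.192 (0.023 to 0.289). Of the single complexes, only complex V was above 0 with these genes in all 4 sets, at a median of 0.243. Complexes III (median 0.116) and IV (median 0.088) were above 0 in 3 of 4 sets. Complex I (median 0.045) was above 0 in 2 of 4 sets. GAPDHS held the most UMIs of the glycolysis list. With the ribosomal protein genes the median of all members was -0.12 (-0.267 to 0.101). With the total UMIs of the cell it was negative in all 4 sets, at a median of -0.13 (-0.433 to -0.069). By Spearman rho that relation was weaker, at a median of -0.054 (-0.155 to -0.030).

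**Figure D5:**
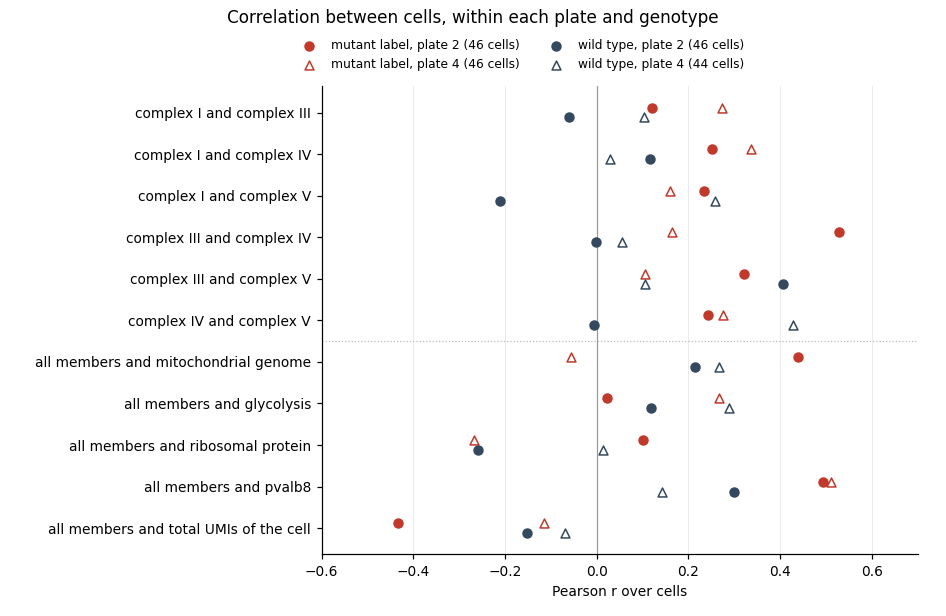
Pearson r over cells between the shares of UMIs of 2 complexes (upper rows) and between the share of all members and other measures (lower rows), in each plate and genotype. Red symbols are mutant cells, drawn above the dark symbols of wild-type cells, with filled circles for plate 2 and open triangles for plate 4. Most of the 24 values between complexes lie between 0 and 0.4, and those with pvalb8 are above 0 in all 4 sets.

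The spread between cells was modest. At 2000 UMIs per cell the variance over the mean of the summed members was 2.33 in mutant and 1.73 in wild-type cells of plate 2, and 3.51 in mutant and 2.28 in wild-type cells of plate 4, where counting alone gives about 1. The coefficient of variation beyond counting had a median over the 4 sets of 13.4% for all members, 18.3% for complex I, 37.8% for complex III, 20.2% for complex IV and 17.8% for complex V. It was 22.7% for the mitochondrial genome, 27.997% for glycolysis, 31.8% for the ribosomal protein genes and 18.3% for pvalb8. The value of complex III changed with depth. At 1000 UMIs per cell it was 17.7%, below complexes I (18.9%) and V (20.9%), and at 4000 UMIs it was 28.4%, above the other complexes. Among single members, over all thinned cells of both plates and genotypes together, the variance over mean was 2.25 for NDUFS1 and 2.10 for ATP5PO, whose highest cell had 17 UMIs. ATP5F1A, with 1.03, was spread as counting alone would give.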

How the data were processed

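The deposited values are raw, whole-number UMI counts, which the authors did not normalize, from mcSCRB-seq libraries, per the labels' protocols. Reads were aligned with STAR 2.6.0a to GRCz11, per the submitters' processing notes, and which counting tool and annotation were used is not stated. There are 12409 rows and 184 cells with 184 distinct barcodes; 54 spike-in rows, 5.15% of UMIs, stayed out of library sizes. A symbol table named 11707 of 12354 gene identifiers. It lists 91 symbols that meet the member rule, of which 7 were not analysed here.

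Plate (2 or 4) was read from the well code in the titles. UMIs were summed per genotype and divided by the genotype's total to give CPM, with exact Poisson intervals. Ratios have exact conditional (Clopper-Pearson) intervals and shares exact binomial (Clopper-Pearson) intervals, all at 95%, covering counting error only. To each genotype 1 UMI was added before log2 ratios were taken, for members with at least 10 UMIs. Cells were thinned to 2000 UMIs with seed 1 for detection and variance. No doublet caller was run, as the labels give each cell a well of its own.

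The members, gene lists and tests were chosen with earlier results of these data known. Named with values were, in each complex, the 4 members with the most UMIs, up to 3 with the largest log2 ratio among those with at least 20 UMIs, the core members and members of paralogue groups with at least 20 UMIs, and at most 2 of each other list; members outside this rule, named for a wide gap, an extreme value or their structural part, were chosen after their values were seen. List symbols were matched regardless of case, otherwise without a final a or b; dld was dropped from the tricarboxylic acid cycle list, since in zebrafish that symbol is deltaD. Marker lists covered hair cells, support cells, epidermis, muscle, neurons and glia, leukocytes and erythroid cells. No genome, promoter or protein table was used, so no coordinates or sequences are given and promoter motifs and protein identity were not analysed here. Alternatives were other minimums of UMIs per cell, averaged per-cell CPM, size factors from edgeR 4.0.16 (TMM) and DESeq2 1.42.0, library sizes without abundant genes, each plate alone, cells left out, other thinning depths, other priors and other member minimums. The ratio, thinning and correlation steps were tested on simulated data. Computation ran in R 4.3.3 and in Python 3.11.15 with pandas 2.3.3, scipy 1.17.1 and numpy 2.4.6; plots came from matplotlib 3.10.9. The values of 1 complex I member are not reported here, although it stays in all sums and counts.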

Additional observations from a re-analysis of the deposited data

How the results depend on the processing

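Among alternative values of the main results, 93 stayed within their interval, within 1 SD or, for counts, within 1.5 times, and 12 moved further. With edgeR TMM factors the summed ratio was 0.988 for all members, 1.02 for complex I, 0.994 for complex IV and 0.956 for complex V, and the median log2 ratio of the members was -0.053, beside 0.02 for all genes. Library sizes without pvalb8 gave 0.965 for all members. Thinning each cell to 2000 UMIs gave 0.991 for complex III and a median log2 ratio of -0.067. Plate 4 alone gave 0.968 for complex V and 1.01 for ATP5F1B, the 1 named member whose interval over all cells left out 1 and whose ratio then changed side. Several members whose interval includes 1 lay on different sides of 1 on the plates. Of the other values of single members, 117 stayed within their interval and 11 did not, each of them on 1 plate alone. Over all alternatives the ratio ran from 0.932 to 0.988 for all members, from 0.944 to 1.02 for complex I, from 0.902 to 0.991 for complex III, from 0.932 to 0.994 for complex IV and from 0.883 to 0.968 for complex V. The members found in at least 50% of cells numbered 13 at 1000 UMIs and 54 at 4000 UMIs, and the variance over mean was 4.13 at 4000 UMIs, where more UMIs per cell raise both by construction. The cause of the other shifts was not tested. No paired analysis was possible because each genotype is 1 sample and the replicate numbers only name cells. The median r between complexes ran from 0.092 without the cells low in pvalb8 to 0.274 with shares taken without pvalb8, s100s, s100t and the mitochondrial genome. Depth limits members under 50 UMIs and each plate 4 value of the rarer copies, whose intervals are wide. Promoter motifs and protein identity were not analysed here. The alternatives that moved NDUFA4 and ndufa4b to complex IV, left out the inhibitors of complex V (0.910), or took shares without ribosomal protein genes and pvalb8 (a median r of 0.257) were chosen after seeing the data.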
